A study of Caenorhabditis elegans with 12 samples.

Results

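The clec genes of Caenorhabditis elegans encode proteins with a C-type lectin-like domain. They were taken as every gene whose symbol is clec followed by a number and that the platform annotation pairs with a probe set as its only gene. Where several such probe sets measured a gene, the probe set of highest mean over the 12 arrays was used. This gave 220 genes from 236 probe sets, out of 17118 genes measured by a probe set with 1 symbol. Another 22 probe sets pair a clec gene with a further gene and were not used, which left out 15 clec genes measured only in that way.

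The 12 arrays hold wildtype animals and hrg-2 mutants at the mid-late L4 stage (the final larval stage), cultured in 4 µM or in 20 µM heme. Total RNA from whole animals was hybridised to Affymetrix arrays, 3 for each of the 4 groups, and the titles number the arrays of a group 1 to 3. HRG-2 acts in the use of heme by the hypodermis, the epidermis of the worm, and C. elegans depends on heme from outside because it cannot make its own. The labels give neither the allele of the mutant nor its number of outcrosses, and 0 probe sets are annotated to hrg-2, so the genotype labels were not checked against the mutated gene.

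C-type lectin-like domains were first known from animal proteins that bind sugars in a calcium-dependent way, although many members of the superfamily bind other ligands. In C. elegans most clec proteins are predicted to be secreted or membrane-bound, and many of those studied are made in the intestine, where a subset is induced when the animal feeds on a pathogen. Part of that immune subset depends on the p38 MAP kinase pathway, in which TIR-1, NSY-1, SEK-1 and PMK-1 act in sequence upstream of the transcription factor ATF-7. For most clec genes no function is assigned, and where none is stated below the role is not known with confidence.

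Values are deposited log2 expression values, so a difference of 1 is a factor of 2. Differences are taken within a probe set, and levels are set against other probe sets only to mark low or higher signal. The arrays' medians lay between 5.735 and 5.932. The array numbered 3 of each group differed from numbers 1 and 2. In a model of group plus a term for number 3, all 27 measured sperm genes of a marker list were higher on number 3, with a median difference of 2.65. So were 8 of 10 oocyte and eggshell genes (median of the list 1.36). Of 6 hypodermal genes 2 were higher, the cuticle collagens col-19 (3.83) and bli-1 (1.91), and the median of that list was 0.27. Of 5 vitellogenins, the yolk proteins of the adult intestine, 1 was higher (median 1.65), and their median shift in wildtype at 4 µM was -1.23. In this test, limma with Benjamini-Hochberg adjustment over 22548 probe sets, 30.1% of all probe sets passed the adjusted threshold of 0.05. Each comparison of conditions below is therefore given over all 12 arrays and again over the arrays numbered 1 and 2. RNA came from whole animals, so fewer cells of a type and less RNA per cell cannot be told apart. The labels do not say that arrays of a group are separate cultures, so the spread that p-values measure here may be technical.

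Of the 220 genes, 202 are protein-coding and 18 are pseudogenes according to RefSeq (assembly WBcel235), where 264 clec genes are listed. They lie on every chromosome, with 31 on I, 47 on II, 17 on III, 45 on IV, 77 on V and 3 on X. In the RefSeq gene order, 142 of them belong to a run of clec genes with at most 2 other genes between neighbours. The largest run, on chromosome V, holds 15 clec genes, of which 11 were measured. Neighbouring clec genes can be similar in sequence, and 34 of the 220 are measured by probe sets whose suffix marks possible cross-hybridisation.

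Many of these genes gave low signal. On all 12 arrays, 53 of the 220 (24.1%) lay below that array's lower quartile, against 16.8% of all probe sets tested, and 61 had a mean above the median mean of all probe sets. The range over the 12 arrays had a median of 1.34 log2 units, against 1.27 for all probe sets. It was under 1 for 69 genes, over 2 for 63 and over 4 for 15. The 10 genes of widest range were clec-222, clec-223, clec-123, clec-151, clec-79, clec-73, clec-174, clec-147, clec-117 and clec-152, and the first of these shows the form that most of them share. At 4 µM, arrays 1, 2 and 3 read 5.23, 5.61 and 8.15 for clec-222 in wildtype and 4.97, 4.52 and 11.20 in the mutant. At 20 µM they read 5.45, 6.02 and 6.64 in wildtype and 3.69, 4.13 and 8.08 in the mutant. The array numbered 3 was the highest of its group each time, while genotype and heme groups overlapped. The gene clec-174 differed from this form, with its lowest value, 3.58, on array 2 of the mutant at 4 µM and its highest, 8.56, on array 3 of the mutant at 20 µM.

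**Figure D1:**
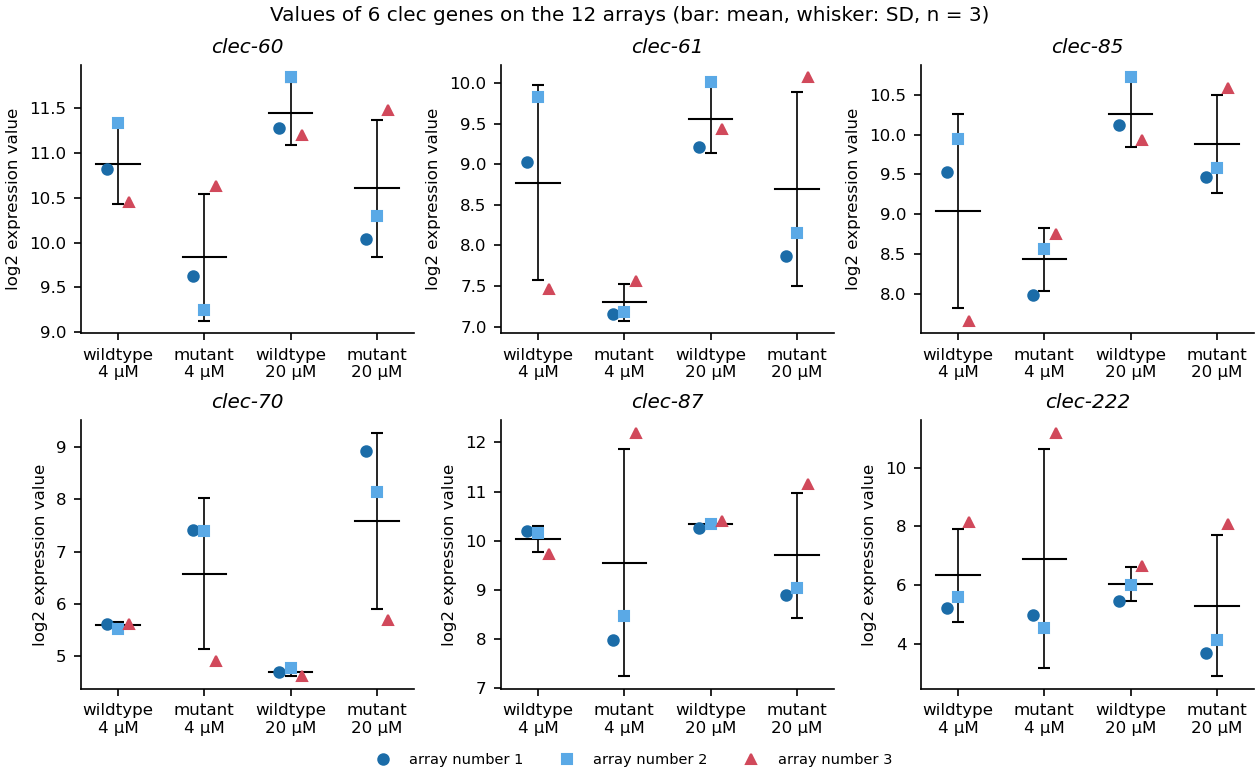
Deposited log2 expression values of 6 clec genes, 1 panel for each gene with its own vertical axis. Points are arrays, with colour and shape giving the array number, bars are group means and whiskers the SD (n = 3). For clec-60 and clec-61 the mutant arrays numbered 1 and 2 lie below the wildtype arrays of the same number, while mutant array 3 lies above wildtype array 3. For clec-222 the array numbered 3 is the highest of every group.

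The comparison of hrg-2 mutants with wildtype at 4 µM asks how loss of HRG-2 alters expression when heme is scarce. Of the 220 clec genes 0 passed limma's adjusted threshold in either direction over all 12 arrays, as against 0.00887% of all probe sets. At an unadjusted p under 0.05 there were 10 genes (4.55% against 6.11% of all probe sets), and the smallest adjusted p was 0.791. Leaving out 1 array moved the count of 10 to between 2, without wildtype array 2 at 4 µM, and 39, without mutant array 3 at 4 µM. In the latter case the clec share was the larger, at 17.7% against 13.7%. A replicate block gave 22 genes (10.0% against 11.4%). The median difference, mutant minus wildtype, was 0.15 over the clec genes and 0.03 over all probe sets. Centring each array on its median moved the second value to 0.16 and the first to 0.29. Among the 61 genes with a mean above the median mean of all probe sets, the median was -0.21, against -0.09 for all such probe sets.

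The mutant arrays were all above the wildtype arrays at 4 µM for 12 clec genes and all below them for 3, which together make 6.82% of the genes against 9.12% of all probe sets. The 5 higher ones of smallest p were clec-206, clec-115, clec-161, clec-9 and clec-114, with differences of 0.37 to 0.70 and adjusted p of 0.791. Of these, clec-206, clec-161, clec-9 and clec-114 lay below the lower quartile on all 12 arrays, and clec-115 did not. The first, clec-206, read 2.79, 2.60 and 2.37 on the wildtype arrays and 3.70, 3.31 and 2.85 on the mutant arrays. Its difference was 0.70 ± 0.22 (SE, n = 3 per group). The 3 lower ones were clec-50, clec-150 and clec-82. For clec-50 the wildtype arrays read 11.56, 12.28 and 11.22 and the mutant arrays 10.65, 10.78 and 11.21, which differ by -0.81 ± 0.32 (SE; adjusted p = 0.791). On number 3 alone its genotypes differed by -0.0094. For clec-82 the difference was -0.66 ± 0.32, with 9.22, 8.92 and 9.14 in wildtype and 8.63, 8.04 and 8.64 in the mutant.

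A list of 10 clec genes known from work on pathogens was followed. They include clec-60 and clec-61, neighbours on chromosome II that are induced by Gram-positive pathogens, clec-85 and clec-67, used as markers of the p38-dependent response, clec-39 and clec-49, studied in infection with Serratia marcescens, and clec-4, clec-41 and clec-42, studied with Bacillus thuringiensis, beside clec-7. In the mutant at 4 µM 0 of these 10 passed, 3 had an unadjusted p under 0.05 (6.11% of all probe sets did), and their median difference was -0.60. The gene clec-60 read 10.82, 11.34 and 10.45 on the wildtype arrays and 9.63, 9.25 and 10.63 on the mutant arrays, a difference of -1.04 ± 0.45 (SE). The gene clec-61 read 9.02, 9.83 and 7.46 in wildtype and 7.15, 7.18 and 7.56 in the mutant, a difference of -1.47 ± 0.65. Both had an adjusted p of 0.791. In both genes the mutant lay below wildtype on arrays 1 and 2, and on the arrays numbered 3 it lay slightly above.

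The third gene of the list with an unadjusted p under 0.05 was clec-49, at 10.59, 11.11 and 10.54 in wildtype and 9.71, 10.11 and 10.59 in the mutant, a difference of -0.61 ± 0.27. For clec-85 the wildtype arrays read 9.53, 9.94 and 7.66 and the mutant arrays 7.98, 8.56 and 8.75, and the groups overlapped only when number 3 was included (-0.61 ± 0.55). For clec-41 the wildtype values of 6.53, 5.99 and 5.85 stood against 5.14, 5.96 and 5.51 (-0.59 ± 0.31). The other members of the list overlapped more widely between genotypes. Their differences were -0.64 ± 0.60 for clec-42, -0.52 ± 0.75 for clec-7, -0.25 ± 0.55 for clec-67, -0.06 ± 0.56 for clec-4 and 0.17 ± 0.25 for clec-39.

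Without the arrays numbered 3, the same comparison called 34 of the 220 clec genes, 16 higher and 18 lower in the mutant, which is 15.5% of the genes against 13% of all probe sets (5.18% higher and 7.78% lower). The genes named from this smaller fit, in which each group has 2 arrays, were chosen after their values were seen, other than those already named. The smallest p among those lower belonged to clec-87, which read 10.20 and 10.17 in wildtype and 7.98 and 8.48 in the mutant (-1.96 ± 0.21, adjusted p = 0.0062). On the arrays numbered 3 its mutant value of 12.20 was above the wildtype value of 9.74. The gene clec-91 had the same form, at 7.25 and 7.01 in wildtype against 5.11 and 5.69 in the mutant (-1.73 ± 0.22, adjusted p = 0.00743) and then 7.03 against 9.44 on number 3. Among those higher, clec-70 read 5.62 and 5.53 in wildtype and 7.42 and 7.40 in the mutant (1.83 ± 0.25, adjusted p = 0.00853), while number 3 read 5.63 and 4.92.

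In the pathogen list 5 of 10 genes passed in this smaller fit, each lower in the mutant: clec-61 (-2.26 ± 0.33), clec-60 (-1.64 ± 0.27), clec-85 (-1.46 ± 0.28), clec-7 (-1.34 ± 0.29) and clec-49 (-0.94 ± 0.24). Their adjusted p ran from 0.00933 for clec-61 to 0.0372 for clec-49. In the pair of arrays numbered 3 none kept its sign, with differences of 0.10, 0.17, 1.09, 1.14 and 0.05 in the same order. Of all probe sets 7.78% passed as lower in this fit. The gene clec-52, known to be induced by Staphylococcus aureus, passed as well (-2.07 ± 0.37, adjusted p = 0.0144), as did clec-54 (-2.48 ± 0.51) and clec-55 (-2.61 ± 0.56), neighbours on chromosome V. Of the 34 genes called here, 8 kept their sign in the pair of arrays numbered 3, or 23.5% against 33.7% of the 2922 probe sets called. On the same arrays 14 of 27 sperm genes were lower in the mutant (list median -1.62), as were 4 of 5 vitellogenins (-3.71), and 2 of 10 oocyte genes (-0.30). Of 7 intestinal markers 1 was lower and 0 higher (list median -0.42). The part that germ line, intestine or stage has in the clec differences was not tested.

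**Figure D2:**
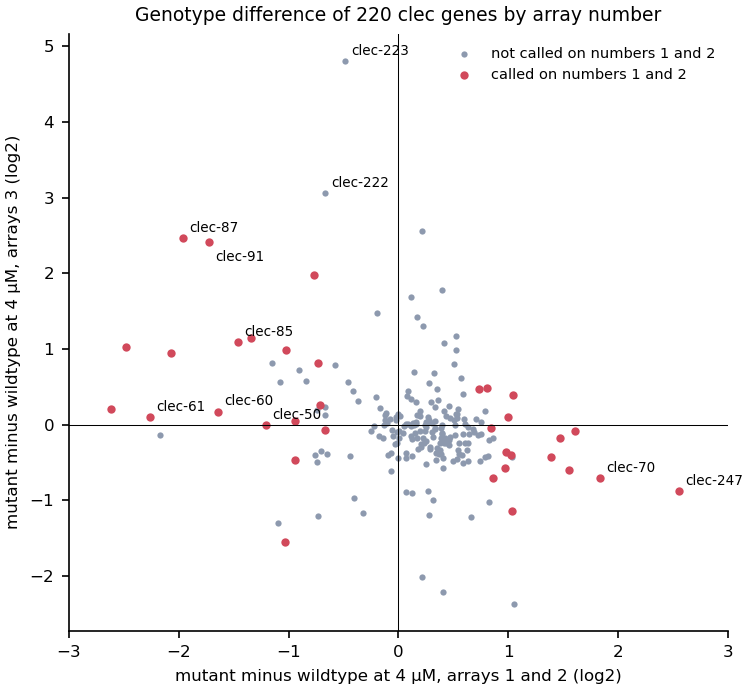
Genotype difference (mutant minus wildtype, log2) at 4 µM for the 220 clec genes, with the mean of the arrays numbered 1 and 2 on the horizontal axis and the pair numbered 3 on the vertical axis. The genes called on arrays 1 and 2 are marked, and 8 of these 34 have the same sign on both axes.

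At 20 µM heme, where heme is ample, 0 of 220 clec genes passed between mutant and wildtype over all 12 arrays, as against 0.00443% of all probe sets. At an unadjusted p under 0.05 there were 3 genes (1.36% against 1.68% of all probe sets), clec-140, clec-70 and clec-58, the last of which was named after its values were seen. The median difference was -0.02 over the clec genes and -0.01 over all probe sets, and among those above the median mean it was -0.21 and -0.04. The mutant arrays were all above wildtype for 5 genes and all below for 5, or 4.55% against 6.73% of all probe sets.

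The largest difference at 20 µM was that of clec-70, which lies in a run of clec genes on chromosome IV. It read 4.70, 4.78 and 4.62 on the wildtype arrays and 8.93, 8.14 and 5.70 on the mutant arrays, so the groups did not overlap and the mutant array numbered 3 was the nearest to wildtype. The mutant was higher by 2.89 ± 0.81 (SE; adjusted p = 0.9998), so this did not pass. Without the arrays numbered 3 it passed, at 3.79 ± 0.25 with an adjusted p of 0.00156, and with array weights, whose estimation did not fully converge, at 3.60 with an adjusted p of 0.0264. At 4 µM its difference over all arrays was 0.99 ± 0.81, with overlapping groups, and the difference between the genotype effects did not pass (adjusted p = 1).

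In the other direction clec-140 read 4.45, 4.97 and 4.52 in wildtype and 3.42, 3.90 and 4.01 in the mutant at 20 µM, which differ by -0.87 ± 0.23 (adjusted p = 0.9998). Its wildtype arrays at 4 µM read 3.47, 4.11 and 3.81 and its mutant arrays 3.70, 3.61 and 3.81, so the wildtype group at 20 µM stood above the other groups. The remaining genes without overlap differed by 0.43 or less in size. They were clec-162, clec-179, clec-103 and clec-255, higher in the mutant by 0.18 to 0.43, and clec-21, clec-258, clec-196 and clec-187, with differences of -0.37 to -0.18.

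Of the pathogen list 0 of 10 passed at 20 µM, 0 had an unadjusted p under 0.05, and the median difference was -0.42. On arrays 1 and 2 also 0 of 10 passed, with 7 at an unadjusted p under 0.05 and a median of -0.71. In that fit 17.4% of all probe sets and 55 of the 220 clec genes had such a p. The gene clec-60 read 11.27, 11.84 and 11.20 in wildtype and 10.04, 10.30 and 11.47 in the mutant (-0.83 ± 0.45). The gene clec-61 read 9.21, 10.02 and 9.43 against 7.86, 8.16 and 10.07 (-0.86 ± 0.65). As at 4 µM, mutant arrays 1 and 2 lay below the wildtype arrays of the same number, and mutant array 3 lay above wildtype array 3. At 4 µM, array 3 of both genotypes lay below wildtype arrays 1 and 2 in both genes. At 20 µM, mutant array 3 lay above wildtype arrays 1 and 3.

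Arrays 1 and 2 alone called 7 of 220 clec genes at 20 µM, 3 higher and 4 lower, or 3.18% against 1.22% of all probe sets (0.572% higher and 0.648% lower). The higher ones were clec-70, clec-247 (2.77 ± 0.40, adjusted p = 0.0217) and clec-3 (1.68 ± 0.27, adjusted p = 0.0292). The lower ones were clec-222 (-1.82 ± 0.28), clec-87 (-1.33 ± 0.21), clec-76 (-1.15 ± 0.21) and clec-58 (-1.15 ± 0.17), with adjusted p from 0.0218 to 0.0435. Of these 7, clec-70 alone kept its sign on the arrays numbered 3, or 14.3% against 38.2% of the 275 probe sets called. On the same arrays 0 of 27 sperm genes and 2 of 5 vitellogenins passed, the latter lower in the mutant (list medians 0.48 and -3.22). Of 7 intestinal markers 0 passed (median -0.30). The part of any of these in the clec differences was not tested.

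Averaged over both heme levels, 0 of 220 clec genes passed, as against 0.00887% of all probe sets. There were 10 genes at an unadjusted p under 0.05, or 4.55% against 6.18%, and the smallest adjusted p was 0.784. The median averaged difference was 0.09 for the clec genes and 0.02 for all probe sets. Its sign turned among those above the median mean, to -0.22 for the 61 clec genes and -0.06 for all such probe sets. In the same direction at both heme levels, 0 clec genes were free of overlap, against 0.652% of all probe sets. For clec-60 the averaged difference was -0.94 ± 0.32, for clec-61 -1.17 ± 0.46 and for clec-70 1.94 ± 0.57. The arrays numbered 1 and 2 called 35 genes, 11 higher and 24 lower, or 15.9% against 13.3% of all probe sets (5.26% higher and 8.02% lower), and 5 of the 10 genes of the pathogen list were among the lower ones. Of 7 intestinal markers 2 were lower and 0 higher on these arrays (list median -0.31), and their part was not tested.

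The genotype effect at 20 µM minus that at 4 µM asks whether the effect depends on heme. Of the 220 clec genes 0 passed, as against 0% of all probe sets, with 6 at an unadjusted p under 0.05 (2.73% against 1.65%) and a smallest adjusted p of 1. The median was -0.14 for the clec genes and -0.02 for all probe sets, and these moved to -0.28 and -0.16 when each array was centred on its median. On arrays 1 and 2 they were -0.34 and -0.05, while among those above the median mean the sign turned, to 0.09 and 0.07. For 0 clec genes did the arrays of wildtype at 4 µM, joined with those of the mutant at 20 µM, all lie on 1 side of the remaining 6, as against 0.071% of all probe sets. Among the pathogen list the smallest p was that of clec-41, at 1.14 ± 0.43. Arrays 1 and 2 alone also called 0 of 220 (0% of all probe sets), with 57 at an unadjusted p under 0.05 (25.9% against 18%).

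In wildtype animals, 20 µM heme was compared with 4 µM to ask how heme supply alone alters expression. Of the 220 clec genes 0 passed, as against 0.0355% of all probe sets, with 5 at an unadjusted p under 0.05 (2.27% against 1.39%). The median difference, 20 minus 4 µM, was 0.05, against -0.0049 over all probe sets, and 0.11 against -0.02 among those above the median mean. All arrays at 20 µM were above all those at 4 µM for 9 genes and below them for 5, or 6.36% against 6.69% of all probe sets. Arrays 1 and 2 alone also called 0 of 220 (0.244% of all probe sets), with 18 at an unadjusted p under 0.05 (8.18% against 8.44%).

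The higher genes of smallest p were clec-140, clec-101, clec-9, clec-52 and clec-82. The gene clec-140 has its values above, and its difference was 0.85 ± 0.23 with an adjusted p of 1. For clec-101 the arrays read 2.97, 2.98 and 2.97 at 4 µM and 3.68, 3.55 and 3.58 at 20 µM (0.63 ± 0.21, adjusted p = 1). For clec-52 they read 8.92, 9.97 and 9.11 at 4 µM and 10.41, 11.13 and 10.54 at 20 µM (1.36 ± 0.68, adjusted p = 1). Within each gene the groups were separate, and the adjusted test over all probe sets did not call them. The lower genes were clec-45, clec-116, clec-214, clec-70 and clec-220, with differences of -1.46 ± 0.65 for clec-45 and -0.89 to -0.24 for the others. The gene clec-45, which also occurs in a probe set shared with another gene, read 6.32, 5.42 and 6.84 at 4 µM and 5.04, 4.32 and 4.84 at 20 µM.

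In the mutant, 0 of 220 clec genes passed between 20 and 4 µM heme, as against 0.0399% of all probe sets, with 11 at an unadjusted p under 0.05 (5.00% against 6.16%). The median difference was -0.10 for the clec genes and -0.05 for all probe sets, and -0.27 and -0.08 on arrays 1 and 2. Among those above the median mean its sign turned, to 0.17 and 0.03. The groups did not overlap for 11 higher and 10 lower genes, or 9.55% against 9.34% of all probe sets. The wildtype and mutant heme differences and the genotype differences above share arrays, so their values are set side by side and not compared.

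The smallest p was that of clec-43, which read 6.01, 5.79 and 5.05 in the mutant at 4 µM and 4.63, 4.52 and 4.75 at 20 µM. Its difference of -0.98 ± 0.25 had an adjusted p of 0.769, and without array 3 of the mutant at 4 µM it became -1.27 with an adjusted p of 0.0496, the 1 call made when that array was left out. The wildtype arrays of clec-43 read 5.09, 4.63 and 4.66 at 4 µM and 4.89, 4.65 and 4.59 at 20 µM. The highest values of this gene were those of arrays 1 and 2 of the mutant at 4 µM.

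Among the higher genes, clec-85 read 7.98, 8.56 and 8.75 at 4 µM and 9.47, 9.58 and 10.59 at 20 µM, which differ by 1.45 ± 0.55 (adjusted p = 0.799). The gene clec-41 read 5.14, 5.96 and 5.51 at 4 µM and 6.83, 6.59 and 5.96 at 20 µM (0.92 ± 0.31, adjusted p = 0.781), and the lowest array at 20 µM was barely above the highest at 4 µM. The other higher genes named by the same rule were clec-82 (0.78 ± 0.32), clec-50 (0.76 ± 0.32) and clec-186 (0.81 ± 0.37). The lower ones beside clec-43 were clec-161 (-0.38 ± 0.16), clec-40 (-0.37 ± 0.17), clec-97 (-0.70 ± 0.32) and clec-76 (-0.63 ± 0.33). Of the pathogen list 0 of 10 passed in this comparison, with 2 at an unadjusted p under 0.05 and a median of 0.49. On arrays 1 and 2 it had 2 of 10 called, both higher at 20 µM, clec-85 (1.25 ± 0.28, adjusted p = 0.0254) and clec-41 (1.16 ± 0.32, adjusted p = 0.0461). In that fit 6 of the 10 had an unadjusted p under 0.05, beside 32.0% of all probe sets and 39.5% of the clec genes. In wildtype 0 of 10 passed, with 0 at an unadjusted p under 0.05 and a median of 0.37, and on arrays 1 and 2 also 0, with 1 at an unadjusted p under 0.05.

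Arrays 1 and 2 alone called 40 of 220 clec genes between heme levels in the mutant, 18 higher and 22 lower at 20 µM, or 18.2% against 14% of all probe sets (7.46% higher and 6.59% lower). The smallest p was that of clec-3, at 2.43 and 3.25 with 4 µM and 5.16 and 5.25 with 20 µM (2.36 ± 0.27, adjusted p = 0.00437), while number 3 read 2.65 and 3.01. Some genes that were high on the arrays numbered 3 were also among those higher. These included clec-123 at 3.00 ± 0.59, clec-151 at 2.83 ± 0.42, clec-79 at 2.24 ± 0.50 and clec-73 at 2.02 ± 0.41. In the pair numbered 3 they differed by -0.56, -1.45, -1.34 and -1.01, in the same order. Others high on number 3 went the other way on arrays 1 and 2. The gene clec-222 read 4.97 and 4.52 at 4 µM and 3.69 and 4.13 at 20 µM, and clec-147 read 4.87 and 4.59, then 4.51 and 3.98. On the arrays numbered 1 and 2, 25 of 27 sperm genes were higher at 20 µM as well (list median 2.31). Of 7 intestinal markers 1 was higher and 2 lower (list median -0.05). The part of either was not tested. Of the 40 genes 13 kept their sign on the arrays numbered 3, or 32.5% against 34.8% of the 3167 probe sets called.

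The difference between the arrays numbered 3 and the others is one between labelled replicate numbers and not between conditions. With group in the model, 55 of the 220 clec genes passed, 23 higher and 32 lower on number 3, or 25% against the 30.1% of all probe sets. By direction, 11.4% of all probe sets were higher and 18.7% lower. Rises ran from 0.60 to 3.65 with a median of 2.08, and falls from -0.57 to -2.16 with a median of -1.10. The sign was the same in all 4 groups for 21 of the 23 rises and 26 of the 32 falls. These genes were called on the same shifts, so such agreement was partly fixed by the choice of genes. Over all members, called or not, the sign was the same in 67 of 220, or 30.5% against 36.4% of all probe sets. Of the 55 genes 6 are pseudogenes, and 1 was below the lower quartile on every array.

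**Figure D3:**
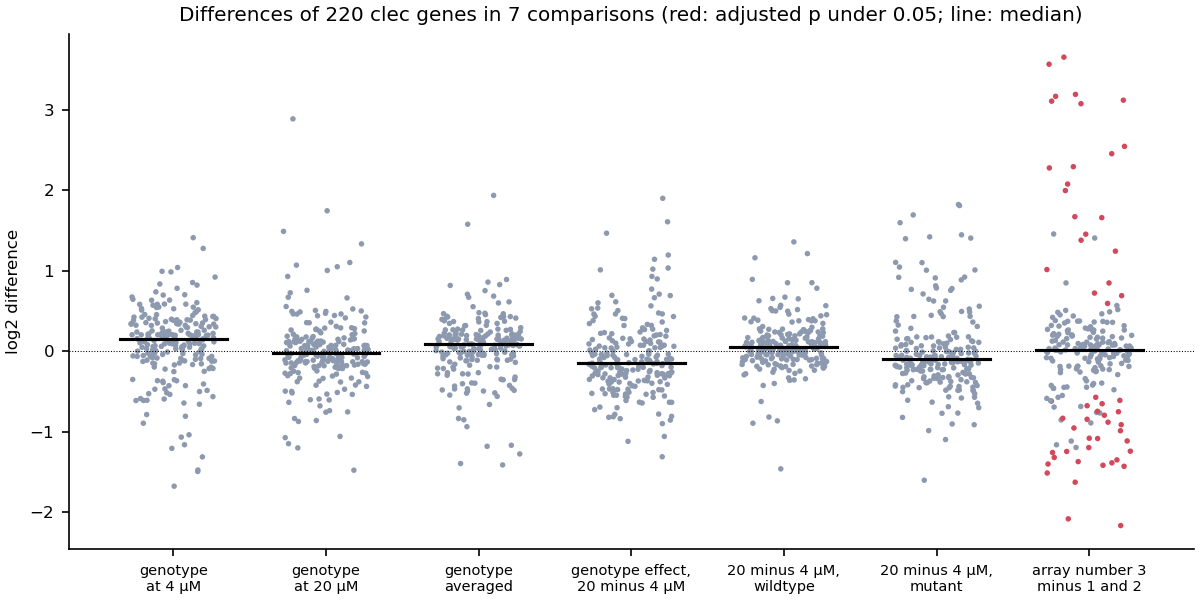
Log2 differences of the 220 clec genes in the 6 comparisons of conditions and between array number 3 and numbers 1 and 2, from limma over all 12 arrays. Each point is a gene, spread sideways at random within its column, lines are medians and red marks an adjusted p under 0.05. There are 0 red points in the columns of conditions and 55 in the last, and the highest point at 20 µM is clec-70 (2.89).

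The largest rise was that of clec-123 on chromosome II, which at 4 µM read 5.49, 4.22 and 8.81 in wildtype and 4.76, 3.80 and 9.60 in the mutant. At 20 µM it read 5.87, 4.50 and 8.76 in wildtype and 7.77, 6.79 and 9.04 in the mutant. Number 3 was 3.65 ± 0.51 (SE) above the others, which is 12.6-fold (adjusted p = 0.000358). The gene clec-117, also on chromosome II, read 4.76, 4.85 and 7.60 in wildtype against 5.58, 4.82 and 9.37 in the mutant at 4 µM, and 5.06, 5.19 and 7.67 against 6.18, 5.45 and 9.07 at 20 µM. Its difference was 3.19 ± 0.26, with an adjusted p of 3.03e-05, the smallest of any clec gene. In both genes each array numbered 3 was above every other array.

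The genes clec-222 (3.57 ± 0.64) and clec-223 (3.17 ± 0.70), neighbours on chromosome V, had their largest shifts, number 3 minus the mean of numbers 1 and 2, on mutant arrays. At 4 µM the shifts were 6.46 and 6.72 in the mutant against 2.73 and 1.43 in wildtype. At 20 µM they were 4.17 and 3.47 in the mutant against 0.91 and 1.05 in wildtype. Whether these shifts differ between genotypes was not tested. The other large rises were those of clec-151 (3.12), clec-79 (3.11), clec-73 (3.08), clec-208 (2.55), clec-147 (2.45) and clec-153 (2.29). The genes clec-73 and clec-79 share a further probe set, so their signals may not be separate. A second probe set for clec-208 gave 1.70.

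The largest fall was that of clec-178 on chromosome IV, which at 4 µM read 8.28, 8.44 and 6.18 in wildtype and 7.22, 8.03 and 4.97 in the mutant. At 20 µM it read 7.99, 8.29 and 6.61 in wildtype and 7.59, 8.17 and 5.59 in the mutant. Number 3 differed by -2.16 ± 0.21 (adjusted p = 6.54e-05), and every array numbered 3 was below every other array. The gene clec-160 on chromosome III fell by nearly the same amount in each group, with shifts of -1.28 and -1.35 at 4 µM and -1.27 and -1.70 at 20 µM (wildtype first), an overall difference of -1.40 ± 0.14. The other large falls were those of clec-184 (-2.08), clec-10 (-1.63), clec-233 (-1.51), clec-265 (-1.43), clec-7 (-1.42), clec-64 (-1.38), clec-72 (-1.37) and clec-70 (-1.35). Of these, clec-10 and clec-70 lost their calls in 6 leave-one-out fits each, and the shifts of clec-70 at 4 and 20 µM were -2.49 and -2.83 in the mutant but 0.05 and -0.12 in wildtype. Second probe sets gave -2.19 for clec-10 and -1.89 for clec-72.

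The pathogen list had 2 of 10 genes lower on number 3 and 0 higher, near the 18.7% of all probe sets that were lower. These were clec-7, above, and clec-67. At 4 µM clec-67 read 9.93, 10.13 and 8.58 in wildtype and 9.92, 10.01 and 7.96 in the mutant. At 20 µM it read 10.25, 10.39 and 9.59 in wildtype and 9.85, 9.83 and 9.70 in the mutant, and its difference was -1.08 ± 0.24 (adjusted p = 0.0061). At 4 µM the list's median shift was -1.43 in wildtype and -0.0053 in the mutant, and at 20 µM it was -0.47 and 0.21. On the arrays numbered 3 the list's median level was 7.56 in wildtype and 7.76 in the mutant at 4 µM, and 9.37 and 9.29 at 20 µM.

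**Figure D4:**
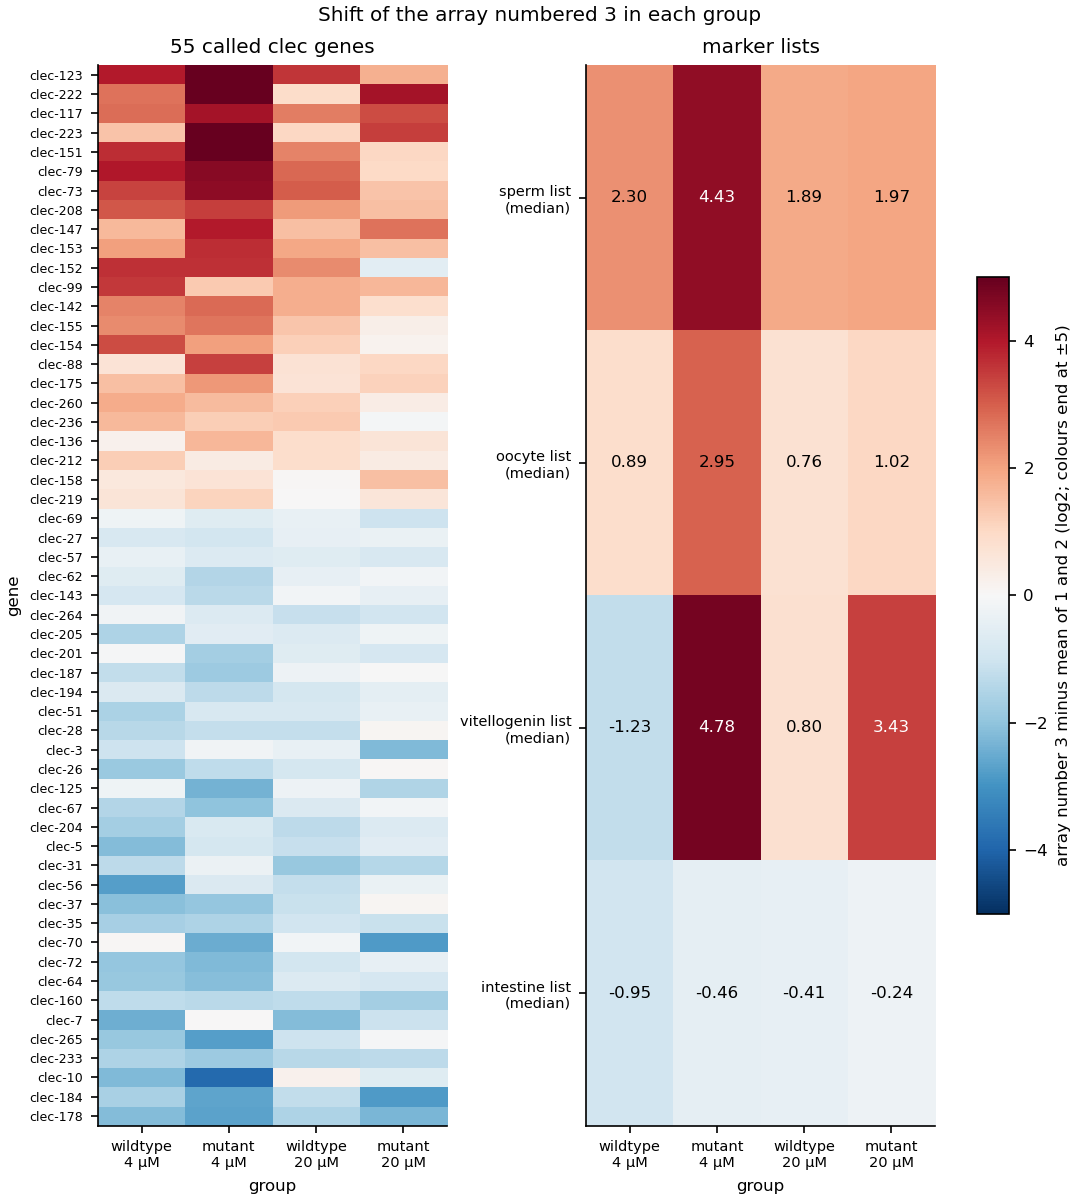
Shift of the array numbered 3 from the mean of arrays 1 and 2 (log2, by colour) in each of the 4 groups. The left panel holds the 55 clec genes called, ordered from the largest rise to the largest fall, and the right panel the medians of 4 marker lists with their values. Colours end at 5 log2 units either way, while the shift of clec-223 in the mutant reached 6.72, and the vitellogenin median is below 0 only in wildtype at 4 µM.

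Markers of the germ line and other tissues were set beside these calls. The rises and falls were called on this same shift, so the sign of their medians was fixed by that choice. Over all 220 members the median shift was 0.13 in wildtype and -0.27 in the mutant at 4 µM, and -0.06 and 0.29 at 20 µM. The median shift of the 23 rises was 2.36 in wildtype and 3.41 in the mutant at 4 µM, and it was 1.37 and 1.03 at 20 µM. The 27 sperm genes had median shifts of 2.30, 4.43, 1.89 and 1.97 in the same order, and the 10 oocyte genes 0.89, 2.95, 0.76 and 1.02. The median level of the sperm genes ran from 7.425 to 10.24 on the arrays numbered 1 and 2 and from 11.245 to 12.21 on those numbered 3. The 32 falls had median shifts of -1.49, -1.34, -0.88 and -0.65, and the 7 intestinal markers, of which 3 passed as lower, -0.95, -0.46, -0.41 and -0.24. The 4 pharyngeal markers had 3 lower, the 5 neuronal markers 2 lower and the 5 muscle markers 1 lower. Of all probe sets 18.7% passed as lower on number 3. The part of these tissues or of developmental stage in the clec calls was not tested.

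Calls were also counted by chromosomal run. Of 43 runs with at least 2 measured members, 19 held a called gene, 7 held 2 or more, and 1 held calls in both directions. On number 3, 25% of the clec genes and 30.1% of all probe sets passed, the latter as 11.4% higher and 18.7% lower. Whether calls gather in runs or on chromosomes beyond such shares was not tested. On chromosome III all 4 measured genes of the run clec-151 to clec-154 were higher on number 3, with a median of 2.29 and the lowest at 1.66 for clec-154. Of these, clec-152 and clec-154 are annotated as pseudogenes. On chromosome V the largest run, from clec-40 to clec-33 in gene order, had 6 of 11 measured genes lower and 0 higher. Its median was -0.61, with the largest fall in clec-35 (-1.32). The run with calls in both directions lies on chromosome IV, where clec-73 and clec-79 were higher and clec-67, clec-69, clec-70 and clec-72 lower among 11 genes. By chromosome, calls were 1 higher and 0 lower on I, 6 and 6 on II, 6 and 2 on III, 3 and 10 on IV, 7 and 13 on V, and 0 and 1 on X. Probe sets of similar neighbours may share signal, so such genes are not independent.

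Other immune genes were set beside the clec genes from lists. Of 6 measured p38 pathway genes, 5 p38 targets, 16 lysozymes, 17 saposin-like genes and 12 galectins, 0 passed in any of the 6 comparisons of conditions over all arrays. On arrays 1 and 2, genotype at 4 µM called 5 lysozymes lower, 1 saposin-like gene higher and 3 lower, 1 galectin higher and 3 lower, and the p38 target irg-4 (-1.44 ± 0.22, adjusted p = 0.0107). At 20 µM that fit called 1 lysozyme higher and 1 lower and 2 saposin-like genes higher. For heme in the mutant it called irg-4, 1 lysozyme and 1 saposin-like gene higher and 1 galectin lower at 20 µM. Averaged over heme it called 1 lysozyme higher and 6 lower, 2 saposin-like genes higher and 4 lower, 1 galectin higher and 4 lower, and irg-4 lower. Its other comparisons called 0 genes of these lists. Of all probe sets this smaller fit called 5.18% higher and 7.78% lower for genotype at 4 µM, and 0.572% and 0.648% at 20 µM. For heme in the mutant it called 7.46% higher and 6.59% lower, and for the averaged genotype 5.26% and 8.02%. Over all arrays, at an unadjusted p under 0.05 the lists held 0, 0, 1, 2 and 2 genes for genotype at 4 µM, in the order first given. Of all probe sets 6.11% had such a p. The smallest p among lysozymes at 4 µM was that of lys-6, an enzyme of bacterial cell wall breakdown (-1.75 ± 0.38, adjusted p = 0.791), and among the galectins, the other lectin family examined, that of lec-12 (-0.80 ± 0.14, adjusted p = 0.563). At 20 µM the smallest among saposin-like genes was that of spp-12 (2.20 ± 0.54, adjusted p = 0.9998). On the arrays numbered 3, where 18.7% of all probe sets were lower and 11.4% higher, the galectins had 6 of 12 lower and 0 higher, with lec-7 at -2.07 ± 0.23. The saposin-like genes had 4 of 17 lower, the lysozymes 2 higher and 1 lower of 16, and the p38 targets 2 of 5 lower, with irg-4 at -1.85 ± 0.19. The lower lysozyme gene, lys-2 (-0.89 ± 0.21), is also the other of these p38 targets. Of the p38 pathway, 1 of 6 passed, the kinase gene pmk-1 (-0.50 ± 0.15, adjusted p = 0.0304).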

How the data were processed

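Per the submitters' processing notes, the authors used RMA and Partek 6.5 for the deposited values, which are on a log2 scale with 1 value for each probe set on each array. Settings and filters of that step: not given in the sources used here. RMA normalizes between arrays, so a shift of most genes together would be reduced. Of 22625 probe sets, 77 controls were left out and 22548 tested. Probe sets were named through the platform annotation, and 220 of 220 symbols matched the RefSeq table of WBcel235 with 0 changed. That table gave biotype, chromosome and gene order, the build behind the array is not known, and no coordinates or sequences are given.

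Tests used lmFit and eBayes of limma 3.58.1 under R 4.3.3, two-sided, fitted to all 12 arrays with 4 group means (8 residual degrees of freedom), or with group plus a term for arrays numbered 3 (7 residual degrees of freedom). Benjamini-Hochberg adjustment ran over all 22548 probe sets and 0.05 was the threshold. Each difference carries its standard error. The fit was tested on simulated data. The number of arrays and the spread between them limit the precision, and 0 pairs of arrays held identical values.

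Deviations from group means correlated between same-numbered arrays in all 12 pairs compared (r from 0.255 to 0.817), which by the rule used pairs the numbers. Arrays of different number gave -0.792 to 0.606, so the ranges overlap, and the offset of number 3 enters these values. The labels do not state a pairing, so the model has no block, and a replicate block was an alternative. The other alternatives were median centring, repeated quantile normalization, array weights, a variance trend, no moderation, probe sets above the median mean, only the groups compared, arrays numbered 1 and 2 only, other probe sets of a gene, and leaving out each array.

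Genes named are, per comparison, up to 5 in each direction of smallest p without overlap, the 10 largest called rises and falls on number 3, the pathogen list, the 10 of largest range, and the 2 of smallest p in other lists. Members, lists and tests were chosen with earlier results of these data known.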

Additional observations from a re-analysis of the deposited data

How the results depend on the processing

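With the replicate block 0 clec genes were called in each of the 6 comparisons of conditions, so it changed no call. Arrays numbered 1 and 2 alone called 34 genes for genotype at 4 µM, 7 at 20 µM, 35 averaged and 40 for heme in the mutant. Array weights, whose estimation stopped short of its convergence tolerance for comparisons of conditions, called 2 for genotype at 20 µM, 11 averaged and 11 for heme in the mutant. These are 0.909%, 5.0% and 5.0% of the clec genes, beside 67, 871 and 1004 of all 22548 probe sets. For heme in the mutant, leaving out 1 array gave 0 to 1, and the fit with 1 called 49 of 22548 probe sets. Counts at an unadjusted p under 0.05 moved more: leaving out 1 array gave 2 to 39 for genotype at 4 µM, 2 to 16 at 20 µM, 5 to 29 averaged, 2 to 17 for the difference between effects, 7 to 40 for heme in the mutant and 2 to 7 in wildtype. At the highest counts the clec shares were 17.7%, 7.27%, 13.2%, 7.73%, 18.2% and 3.18%, in the same order. The shares of all probe sets were then 13.7%, 3.80%, 11.2%, 3.64%, 16.5% and 1.51%. Where 1 fit alone gave the lowest count, the clec share was 0.909% against 2.44% at 4 µM and 0.909% against 0.914% at 20 µM. For heme it was 3.18% against 4.09% in the mutant and 0.909% against 0.989% in wildtype. Probe sets above the median mean turned the sign of the clec median for genotype at 4 µM, averaged, the difference between effects, heme in the mutant and number 3 (-0.45 against 0.02). For number 3, leaving out 1 array gave 45 to 59, in fits that called 5706 and 6256 of 22548 probe sets. Probe sets above the median mean gave 29 of 61 genes (47.5%), against 4535 of 11274 such probe sets. Of 1570 values of named genes, 1523 kept direction and side of the threshold. The 10 that reversed were uncalled differences at 4 µM. For clec-4 median centring gave 0.072, repeated quantile normalization 0.0047 and array weights 0.46, and leaving out 1 array gave -0.66 to 0.37. Leaving out 1 array gave -1.33 to 0.061 for clec-7, -0.032 to 0.30 for clec-39 and -0.73 to 0.42 for clec-67. On number 3, clec-10 and clec-70 alone among named genes lost calls, under array weights, without moderation and in leave-one-out fits. The fit on arrays 1 and 2 has fewer arrays, and the cause of the differences was not tested. A second probe set of clec-136 gave -0.11 on number 3 against 0.85. Signal near background limits the 53 genes that were low on all arrays.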
